A study of Mus musculus with 10 samples.

Results

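The PDGF system of the mouse consists of the ligand genes Pdgfa, Pdgfb, Pdgfc and Pdgfd and the receptor tyrosine kinase genes Pdgfra and Pdgfrb. These 6 genes were taken by symbol from the 23230 features of the deposited matrix, and all 6 were found. RNAseq values came from 10 libraries in 3 groups. AstroEGFR* (n = 3, batches 1 to 3) were cortical astrocytes of C57BL/6 mice at postnatal day 5, lacking p16/p19 (the Ink4a/Arf locus) and transduced with a retrovirus for the constitutively active human receptor EGFRvIII, here EGFR*. PT (n = 4) were glioma propagating cells cultured from the tumours that such C57BL/6 cells formed in CD1 Nude mice. Batch 1 was taken to have given rise to PT1 and PT4, batch 2 to PT2 and batch 3 to PT3. The labels do not give this assignment. AstroEGFR* Zfp423 (n = 3) were the same batches of astrocytes with a second virus that overexpresses Zfp423, a zinc finger transcription factor. The p16/p19 loss and EGFR* were thus common to every library, all cultures were below passage 10, and each library was 1 culture. The astrocyte medium contained fetal bovine serum, whereas PT cells were kept without serum and with added EGF and FGF2, so the medium and passage through a tumour cannot be told apart as sources of a difference.

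PDGF chains act as dimers. PDGF-A and PDGF-B are processed inside the cell, whereas PDGF-C and PDGF-D carry a CUB domain that proteases remove outside it. The alpha receptor binds the A, B and C chains, the beta receptor binds the B and D chains, and binding pairs the receptors and switches on their kinases. In the brain the alpha receptor is known for marking oligodendrocyte progenitors and the beta receptor for marking pericytes, and PDGF signalling is a well known driver in glioma.

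The values were FPKM, that is fragment numbers scaled by transcript length and by library size, so that genes can in principle be compared. Without fragment counts in the files, the sequencing depth is unknown. The 5th percentile of the values above 0 was 0.0986 FPKM in AstroEGFR*3 and 0.0768 in PT3, against 0.0124 to 0.0203 in the other 8 libraries, so the lowest listed values were higher in these 2 libraries of the third batch. Small RNA and histone features took 0.801% to 54.8% of the summed FPKM. Gapdh, a glycolytic enzyme gene used in every cell, was listed at 0.0106 to 50.1 FPKM. Hmgcs1, a sterol synthesis gene, was at 0 in every library. A value near 0 is therefore given here as listed, and orders or shares of genes hold for the listed values only. Zfp423 was at 3.25 to 4.30 FPKM in AstroEGFR*, at 0.641 to 2.78 in PT and at 15.7, 9.73 and 105 in AstroEGFR*1, 2 and 3 Zfp423. Cdkn2a, the gene of p16/p19, was listed at 3.96 to 130 FPKM, and a value for the whole gene does not tell deleted from remaining exons. Xist was at 20.4 to 34.9 FPKM in the 3 libraries of batch 2 and at most 0.0403 in the other 7, which matches the batch numbers. Microglia and macrophage markers (8 genes) summed to 1226 and 690 FPKM in AstroEGFR*1 and AstroEGFR*2 Zfp423 and to 1.10 to 36.6 in the other 8 libraries, and those 2 libraries stood apart in this respect.

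Promoter sequences of RefSeq, build GRCm38.p6, were found for 4 of the 6 genes (Pdgfa, Pdgfc, Pdgfd and Pdgfra). Shown are the 250 bases before the start site of Pdgfa, Pdgfc and Pdgfd, so that the sequences can be set beside the levels. Pdgfa stayed high in PT, and Pdgfc and Pdgfd had lower values there. Pdgfb, which was also lower, had no promoter sequence here. Capitals mark matches, on either strand, to the TATA box (TATAAA), the GC box (GGGCGG), the CCAAT box, the AP-1 motif (TGANTCA) or the CArG box, the binding motif of serum response factor. The search covered 250 bases before to 50 bases after the start.
Pdgfa, upstream start, chr5:138994945-138995194, minus strand: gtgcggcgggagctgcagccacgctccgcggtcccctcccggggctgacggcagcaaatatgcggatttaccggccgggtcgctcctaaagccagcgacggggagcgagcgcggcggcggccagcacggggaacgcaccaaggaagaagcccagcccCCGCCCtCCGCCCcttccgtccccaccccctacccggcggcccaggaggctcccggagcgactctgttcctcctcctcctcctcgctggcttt
Pdgfc, chr3:81036166-81036415, plus strand: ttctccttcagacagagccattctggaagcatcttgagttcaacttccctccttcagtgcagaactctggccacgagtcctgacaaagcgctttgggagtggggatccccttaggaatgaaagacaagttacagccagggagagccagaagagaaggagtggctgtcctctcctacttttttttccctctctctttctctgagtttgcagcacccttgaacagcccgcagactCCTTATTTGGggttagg
Pdgfd, chr9:6168236-6168485, plus strand: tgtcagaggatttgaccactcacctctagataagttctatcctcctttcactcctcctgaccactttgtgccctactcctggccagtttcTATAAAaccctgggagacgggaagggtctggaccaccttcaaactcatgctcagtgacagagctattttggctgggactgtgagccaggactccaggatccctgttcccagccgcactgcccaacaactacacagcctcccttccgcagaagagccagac

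The Pdgfa window held GGGCGG, the GC box, on the opposite strand 93 and 86 bases upstream of the start, and 35.7% of all 32851 promoter windows of the same length held at least 1. Its second start, at chr5:138994282-138994531, had 1 GGGCGG on the strand of the gene, 60 bases upstream. The Pdgfc window held a CArG box 17 bases upstream, a motif found in 1.63% of all windows. In the Pdgfd window TATAAA began 160 bases upstream, and 13.6% of all windows held it. The Pdgfra window had no match to the 5 motifs, of which CCAAT was found in 37.4% and TGANTCA in 7.81% of all windows. No printed match overlapped another motif. G and C made up 73.3% of the upstream Pdgfa window, 67.0% of its second window, 56.7% of that of Pdgfd, 55.0% of that of Pdgfc and 51.0% of that of Pdgfra. These matches describe the letters and do not identify bound sites.

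The comparison of PT with AstroEGFR* addressed which transcripts differ between tumorigenic astrocytes and the glioma propagating cells derived from them. Pdgfb, Pdgfd and Pdgfrb fell in PT, Pdgfc was lower in every PT library without passing the test, and Pdgfa and Pdgfra overlapped between the groups and did not pass it. Features were compared on log2(FPKM + 1) by limma with Benjamini-Hochberg adjustment over 12261 features, those whose mean reached 1 FPKM. All 6 genes passed that mean, Pdgfb and Pdgfd only through their AstroEGFR* values. With no filter 1 of 6 was called, Pdgfb, with adjusted p of 0.0541 for Pdgfd and 0.0505 for Pdgfrb. At an adjusted p below 0.05, 3 of 6 were lower and 0 of 6 higher in PT, where 1.24% of all features tested passed, 0.922% lower and 0.318% higher. For 4 of 6 genes every PT library lay below every AstroEGFR* library, as was so for 7.81% of all features, and for 0 of 6 every PT library lay above, as was so for 6.95%. These counts depended on the fit: 4 of 6 PDGF genes and 475 of all features passed with the astrocyte batch as a replicate block, 2 and 31 with a block by title number without PT4, 1 and 82 with all 10 libraries in 1 fit, and 1 and 61 with PT1 and PT4 averaged. Without AstroEGFR*1 or without the third batch 0 of 6 passed, with 7 or 8 features in all. An exact permutation test with 3 against 4 libraries can give no p below 0.0286. In this comparison labels were exchanged freely between all libraries, so its p ignores the shared astrocyte batches.

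**Figure D1:**
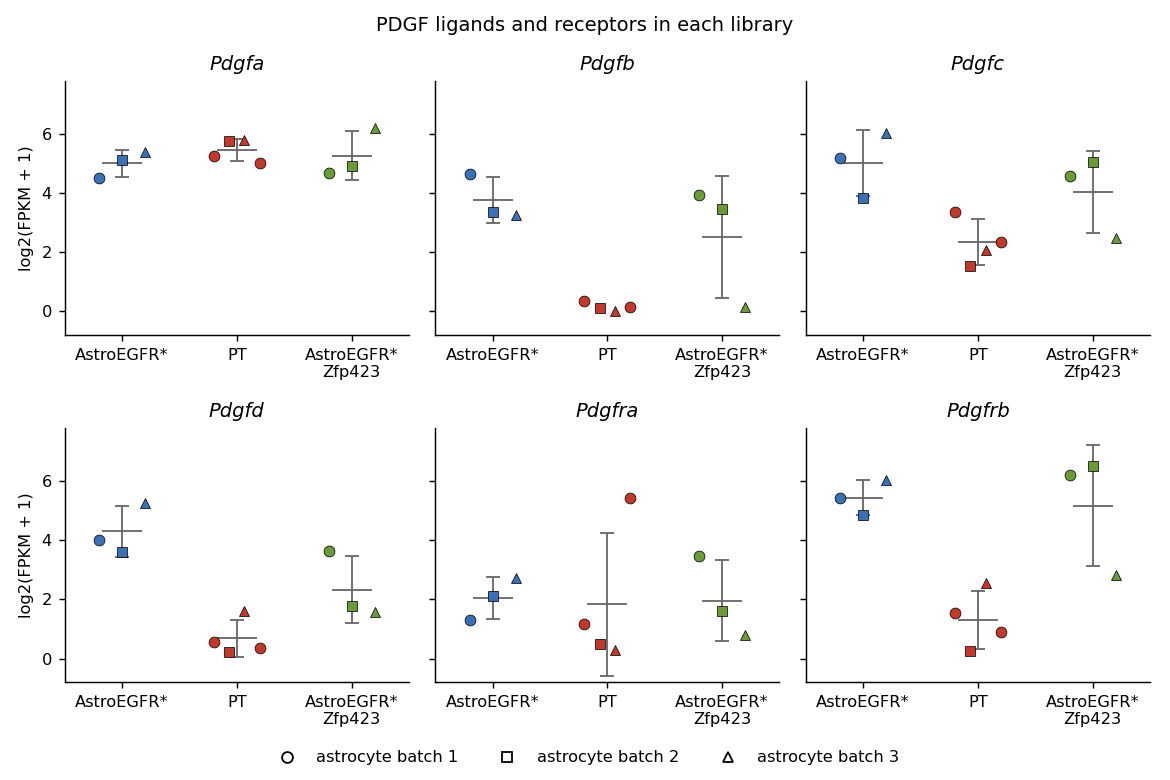
Level of each PDGF gene, as log2(FPKM + 1), in the 3 AstroEGFR*, 4 PT and 3 AstroEGFR* Zfp423 libraries; symbols give the astrocyte batch, horizontal lines and bars the group mean and SD (not drawn for Pdgfb in PT, where 1 library was listed at 0). Pdgfb, Pdgfc, Pdgfd and Pdgfrb of all 4 PT libraries lie below all 3 AstroEGFR* libraries, and PT4 stands alone for Pdgfra at 41.9 FPKM.

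Pdgfa encodes the A chain, a ligand of the alpha receptor. It was at 21.7, 33.7 and 41.3 FPKM in AstroEGFR*1, 2 and 3 and at 37.8, 53.0, 55.4 and 31.5 FPKM in PT1, 2, 3 and 4. The groups overlapped, with PT4 below AstroEGFR*2 and AstroEGFR*3. On the log2(FPKM + 1) scale AstroEGFR* averaged 5.01 ± 0.46 (SD, n = 3). PT averaged 5.47 ± 0.38 (SD, n = 4), a difference of 0.46 with a 95% interval of -0.27 to 1.19 (limma, adjusted p = 0.594; exact two-sided permutation p = 0.229). It was 0.21 without AstroEGFR*1 and 0.66 without AstroEGFR*3. Each PT library was nevertheless above the astrocytes of its own batch, by 0.77 in PT1, 0.51 in PT4, 0.64 in PT2 and 0.41 in PT3 on the log2 scale. With the batch as a replicate block the difference was 0.57 with a standard error of 0.16 (limma, unadjusted p = 0.0122, adjusted p = 0.101). Pdgfa was the only one of the 6 genes to lie above 83.1% of all features in every library.

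Pdgfb encodes the B chain, which binds both receptors. Its values were 24.2, 9.37 and 8.59 FPKM in AstroEGFR*1, 2 and 3, against 0.284, 0.0950, 0 and 0.106 in PT1, 2, 3 and 4. The groups did not overlap, and every PT library was listed below 1 FPKM. The log2 difference was -3.61 with a standard error of 0.40 (limma, adjusted p = 0.0109; exact two-sided permutation p = 0.0286). Within batches the difference was -4.30 in PT1, -4.51 in PT4, -3.24 in PT2 and -3.26 in PT3. Leaving out AstroEGFR*1, the library with the highest value, gave -3.16 with an adjusted p of 0.0572 by limma, and a pseudocount of 0.1 in place of 1 gave -5.99. The same change of pseudocount gave -5.00 for Pdgfd and -5.06 for Pdgfrb, so the size of these decreases, and their order, depends on it.

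Pdgfc encodes the C chain, a ligand of the alpha receptor that needs cleavage of its CUB domain. It was listed at 35.2, 13.5 and 65.0 FPKM in AstroEGFR*1, 2 and 3 and at 9.43, 1.94, 3.26 and 4.16 FPKM in PT1, 2, 3 and 4. The groups did not overlap, yet the astrocyte batches themselves spanned a wide range. The log2 difference was -2.68 with a standard error of 0.60 and did not pass the test (limma, adjusted p = 0.0915; exact two-sided permutation p = 0.0286). With the astrocyte batch as a replicate block it was -2.80 and passed (limma, adjusted p = 0.0353), with PT1 and PT4 of batch 1 as 2 libraries. Without PT4 the block by title number gave -2.68 (limma, adjusted p = 0.119), and averaging PT1 and PT4 gave -2.85 (limma, adjusted p = 0.137). The within-batch differences were -1.80 in PT1, -2.81 in PT4, -2.30 in PT2 and -3.95 in PT3.

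Pdgfd encodes the D chain, a ligand of the beta receptor that is also activated by cleavage. The 3 AstroEGFR* libraries held 15.3, 11.3 and 37.9 FPKM, and PT1, 2, 3 and 4 held 0.462, 0.161, 2.05 and 0.284 FPKM. Every PT library was far below every AstroEGFR* library, and PT3 was the highest of the 4. The log2 difference was -3.63 with a standard error of 0.51 (limma, adjusted p = 0.0216; exact two-sided permutation p = 0.0286). The 4 within-batch differences were close to each other, from -3.67 in PT3 to -3.41 in PT2. The call was lost when AstroEGFR*1 (limma, adjusted p = 0.104), AstroEGFR*3 (0.0651), PT1 (0.0553), PT2 (0.0543) or PT4 (0.0714) was left out, with log2 differences between -3.77 and -3.14.

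Pdgfrb, the beta receptor, stood at 42.1, 27.9 and 65.7 FPKM in AstroEGFR*1, 2 and 3. In PT1, 2, 3 and 4 it was at 1.91, 0.182, 4.94 and 0.849 FPKM. In AstroEGFR* it lay above 86.2% to 94.3% of all features, and in PT above 42.7% to 62.3%. The log2 difference was -4.14 with a standard error of 0.57 (limma, adjusted p = 0.0200; exact two-sided permutation p = 0.0286). The within-batch differences ran from -4.61 in PT2 to -3.49 in PT3. Without AstroEGFR*1, AstroEGFR*3 or PT4 the adjusted p by limma was 0.109, 0.0845 or 0.0678. Without both libraries of the third batch, Pdgfb, Pdgfd and Pdgfrb differed by -3.80, -3.45 and -4.25, with adjusted p of 0.0816, 0.0789 and 0.0797, and 8 features were called in all.

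Pdgfra, the alpha receptor, was at 1.48, 3.36 and 5.67 FPKM in AstroEGFR*1, 2 and 3. It was at 1.25, 0.394 and 0.218 FPKM in PT1, 2 and 3 but at 41.9 FPKM in PT4. PT1, PT2 and PT3 lay below all AstroEGFR* libraries and PT4 above them all. The log2 difference was -0.22 with a 95% interval of -3.03 to 2.60, which leaves its direction unresolved (limma, adjusted p = 0.962; exact two-sided permutation p = 0.971), and without PT4 it was -1.41. PT1 and PT4 came from the same astrocyte batch and differed from their parent by -0.14 and 4.11 on the log2 scale. Markers of oligodendrocyte progenitors (10 genes) summed to 1837 FPKM in PT4 and 1446 in PT1, against 184 and 189 in PT3 and PT2 and 87.0 to 255 in AstroEGFR*. All 9 of them that were tested had positive differences, with a median of 1.15, 2 higher at an unadjusted p below 0.05 (5.88% of all features were) and 0 called. Only 7 of the 10 reached a mean of 1 FPKM in AstroEGFR* against 9 in PT, so some were tested only through their PT values and these counts are descriptions. Their part in the Pdgfra values was not tested. Olig1, a transcription factor of the lineage with their highest mean over all 10 libraries, reached 1089 FPKM in PT, and Neu4 was listed at 0 in AstroEGFR*. Cspg4, a proteoglycan of these progenitors and of pericytes that binds PDGF-A, was at 64.5 FPKM in PT4, 18.0 in PT1, 1.41 in PT2 and 0.0295 in PT3. In AstroEGFR*2 Zfp423 it was at 49.9 FPKM, where Pdgfra was at 2.05. In AstroEGFR*1 Zfp423 Cspg4 was at 3.67 FPKM and Pdgfra at 10.0.

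**Figure D2:**
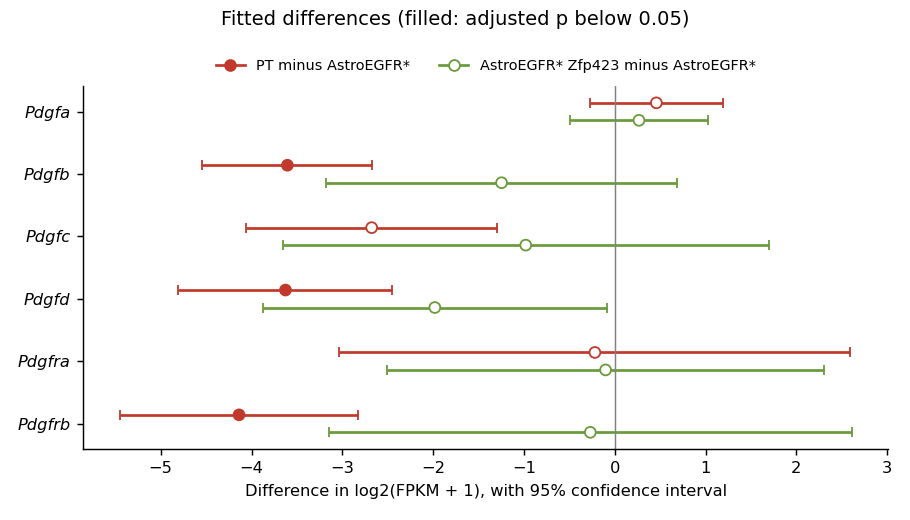
Fitted difference of each PDGF gene in log2(FPKM + 1) for PT minus AstroEGFR* and for AstroEGFR* Zfp423 minus AstroEGFR*; points are limma estimates, bars 95% confidence intervals, and filled points have an adjusted p below 0.05. Pdgfb, Pdgfd and Pdgfrb are filled for PT, Pdgfa and Pdgfra span 0, and no point is filled for Zfp423.

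These differences changed the make-up of the PDGF transcripts. The 4 ligand genes summed to 96.5, 67.8 and 152.8 FPKM in AstroEGFR*1, 2 and 3 and to 47.9, 55.2, 60.7 and 36.0 FPKM in PT1, 2, 3 and 4. Pdgfa made up 22.5%, 49.7% and 27.1% of the ligand sum in the AstroEGFR* libraries and 78.8%, 96.0%, 91.3% and 87.4% in the PT libraries. Pdgfb and Pdgfd, the ligands of the beta receptor, together made up 30.4% to 41.0% in AstroEGFR* and 0.464% to 3.37% in PT. The receptor sum was 31.3 to 71.4 FPKM in AstroEGFR*, with Pdgfra at 3.39% to 10.8% of it. In PT1, PT2 and PT3 the receptor sum was 3.16, 0.576 and 5.16 FPKM, with Pdgfra at 39.6%, 68.5% and 4.23% of it. PT4 reached 42.7 FPKM with 98.0% of it from Pdgfra. These shares are descriptive, as they follow from the same values.

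**Figure D3:**
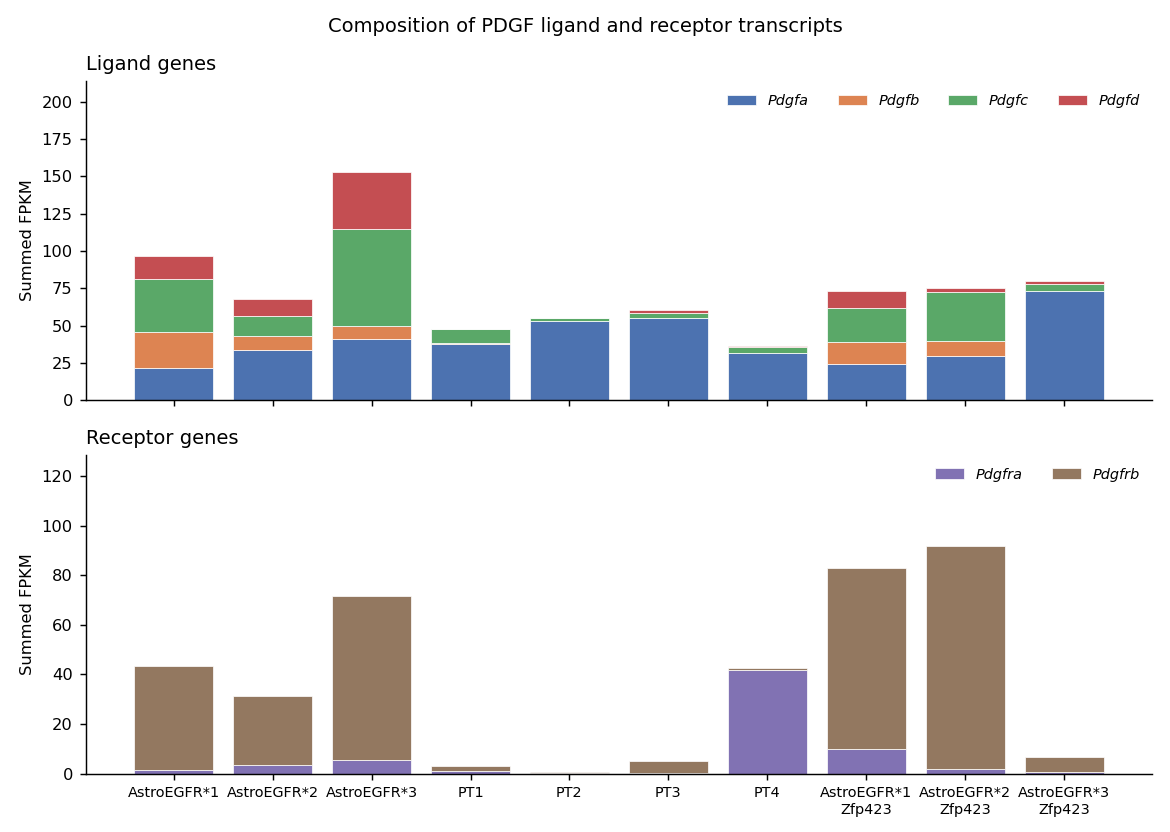
Summed FPKM of the 4 ligand genes (top) and the 2 receptor genes (bottom) in each library, with 1 colour per gene. Pdgfa fills 78.8% to 96.0% of the ligand bars of PT, and the receptor bars are low in PT1, PT2 and PT3 and almost wholly Pdgfra in PT4.

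By mean log2(FPKM + 1), the order in AstroEGFR* was Pdgfrb, Pdgfc, Pdgfa, Pdgfd, Pdgfb and Pdgfra. Neighbours in this order overlapped in their libraries, except that Pdgfra, at most 5.67 FPKM, lay below Pdgfb, at least 8.59 FPKM. In PT, Pdgfa led in PT1, PT2 and PT3, and its lowest PT value of 31.5 FPKM was above the highest of Pdgfc, Pdgfd, Pdgfb and Pdgfrb. Pdgfb was the lowest of the 6 in all 4 PT libraries. In AstroEGFR* Zfp423 the beta receptor led in batches 1 and 2 and Pdgfa in batch 3.

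Markers of other cell types were read in the same libraries, and 0 genes of the 7 marker lists were called. Fibroblast and meninges markers (10 genes) summed to 520, 595 and 5639 FPKM in AstroEGFR*1, 2 and 3 and to 86.5, 10.2, 558 and 50.9 FPKM in PT1, 2, 3 and 4. All 10 had negative differences with a median of -3.57, 8 were lower at an unadjusted p below 0.05 (7.69% of all features were) and 0 were called, while the median of all features was 0.03. In PT 6 of the 10 reached a mean of 1 FPKM and in AstroEGFR* all 10, so some were tested only through AstroEGFR* and these counts too are descriptions. Col1a2, a collagen chain with the highest mean of the list over all 10 libraries, ran from 119 to 1750 FPKM in AstroEGFR* and from 0.00354 to 94.9 FPKM in PT. In bulk libraries, fewer cells of a type and less RNA per cell cannot be told apart, and the part of such cells in Pdgfb, Pdgfc, Pdgfd and Pdgfrb was not tested. Of the 10 pericyte and mural cell markers, 4 were tested and 0 called, with a sum of 28.8 to 84.9 FPKM in AstroEGFR* and 7.56 to 121 FPKM in PT. The sum of 121 FPKM was that of PT4, where 64.5 came from Cspg4, also a marker of oligodendrocyte progenitors. Mcam, an adhesion molecule with the highest mean of this list over all 10 libraries, reached 61.6 FPKM in AstroEGFR* and 47.2 in PT. The more specific Kcnj8, Abcc9, Higd1b, Vtn and Des stayed at or below 0.432 FPKM in all 10 libraries, and Rgs5 reached 5.02 FPKM in AstroEGFR* and 0.263 in PT. Astrocyte markers summed to 1486 to 1801 FPKM in AstroEGFR* and 449 to 3273 in PT, with Fabp7, a fatty acid binding protein of radial glia, at the highest mean over all 10 libraries. Endothelial markers summed to at most 10.4 FPKM in these 7 libraries, with Flt1, a VEGF receptor, on top and Cldn5 listed at 0 in PT. Neuron markers (7 of 8 found) summed to 17.7 to 110 FPKM in the same libraries, mostly Tubb3, a tubulin. No marker was listed at 0 in all 10 libraries.

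Overexpression of Zfp423 in the astrocytes, which already held its transcript, addressed which genes change with more of that factor, and each culture was compared with its own batch. In the blocked limma fit, 0 of 12366 features passed an adjusted p of 0.05, that is 0% in either direction, with 913 at an unadjusted p below 0.05 and 2 called without the block. Accordingly 0 of 6 PDGF genes passed, and all 6 overlapped between the groups, where 5.87% of all features lay wholly lower and 5.68% wholly higher. An exact permutation within 3 batches can give no p below 0.25.

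The batches differed in direction, which with 1 pair of libraries per batch was not tested. In AstroEGFR*3 Zfp423, Pdgfb was listed at 0.0988 FPKM, Pdgfc at 4.58, Pdgfd at 2.01 and Pdgfrb at 6.07 FPKM. The first 3 of these values lay within the range of PT and Pdgfrb slightly above it. Pdgfa was at 73.2 FPKM there, its highest value of the 10 libraries, and made up 91.6% of the ligand sum. This library had the highest Zfp423 value of all 10, and also the highest share of small RNA and histone features, 54.8% against 4.88% in its parent culture, and the highest summed FPKM. Their part in its PDGF values was not tested. It had a fibroblast marker sum of 447 FPKM, and its microglia and macrophage marker sum was 1.20 FPKM.

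AstroEGFR*1 and AstroEGFR*2 Zfp423 kept high values of most members. Pdgfrb was at 72.9 and 89.8 FPKM, above all 3 AstroEGFR* libraries. Pdgfb was at 14.3 and 10.2 FPKM, Pdgfc at 22.9 and 32.7 FPKM and Pdgfa at 24.6 and 29.7 FPKM, all within the AstroEGFR* range. Pdgfd was at 11.4 FPKM in batch 1 and at 2.39 FPKM in batch 2, the second below every AstroEGFR* library. Pdgfra was at 10.0, 2.05 and 0.736 FPKM in batches 1, 2 and 3. Both libraries held fibroblast marker sums of 4730 and 7239 FPKM. Their C1qa, a complement gene of microglia and macrophages, was at 433 and 290 FPKM, whereas it was at most 1.71 FPKM in the other 8. All 8 markers of that list had positive differences with a median of 3.25, 2 higher at an unadjusted p below 0.05 (3.3% of all features were) and 0 called. In AstroEGFR* 3 of the 8 reached a mean of 1 FPKM, so most were tested only through the Zfp423 libraries, and the counts are a description. The part of such cells in the PDGF values was not tested. Astrocyte markers summed to 802, 82.5 and 2915 FPKM in AstroEGFR*1, 2 and 3 Zfp423, and Fabp7 was at 0.316 FPKM in batch 2. All 10 astrocyte markers had negative fitted differences with a median of -1.63, 4 were lower at an unadjusted p below 0.05 (4.08% of all features were) and 0 were called, beside a median of 0.02 over all features. Cldn5 and Neu4 were listed at 0 in all 3 Zfp423 libraries, as was Dcx, a gene of young neurons.

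Pdgfd was lower than in its parent culture in 3 of 3 batches, with log2 differences of -0.40, -1.86 and -3.69, and did not pass the test. The fitted difference was -1.98 with a 95% interval of -3.88 to -0.09 (limma, unadjusted p = 0.0439, adjusted p = 0.628; exact two-sided permutation p = 0.25), where 4.08% of all features were lower at an unadjusted p below 0.05. Without the third batch it was -1.13. Pdgfrb differed by 0.78, 1.65 and -3.24 in batches 1, 2 and 3, with a fitted difference of -0.27 and a standard error of 1.06 (limma, adjusted p = 0.954). Pdgfc differed by -0.60, 1.22 and -3.56, fitted at -0.98 with a standard error of 0.98 (limma, adjusted p = 0.791). Pdgfb was nearly level in batch 2 at 0.11 and lower in batches 1 and 3, by -0.72 and -3.13, for a fitted difference of -1.25 with a standard error of 0.71 (limma, adjusted p = 0.672). Without either library of batch 3 that difference was -0.31, and without either library of batch 2 it was -1.92. Pdgfa and Pdgfra were fitted at 0.27 with a standard error of 0.28 and at -0.10 with a standard error of 0.88 (limma, adjusted p = 0.801 and 0.981). Both comparisons share the 3 AstroEGFR* libraries, and the difference between them was not tested.

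**Figure D4:**
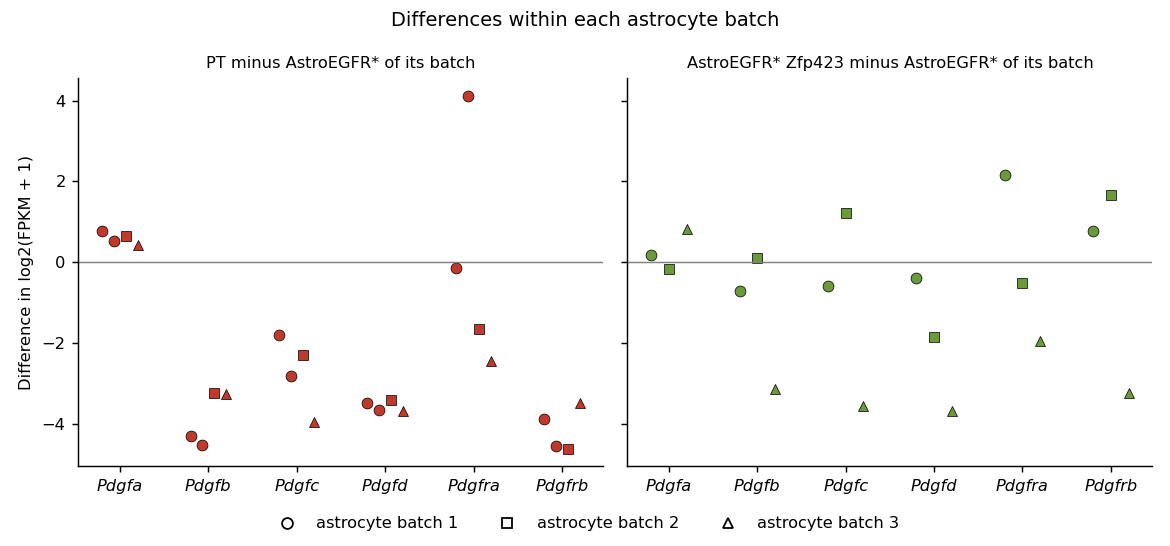
Difference of each PDGF gene in log2(FPKM + 1) between a PT (left) or AstroEGFR* Zfp423 (right) library and the AstroEGFR* library of its batch; each point is 1 library and symbols give the batch. For PT the points of Pdgfb, Pdgfc, Pdgfd and Pdgfrb are all below 0 and those of Pdgfa above it, while for Zfp423 batch 3 is the lowest for every gene but Pdgfa.

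Of the wider pathway, 60 genes in 5 lists were read in the same fits. Between PT and AstroEGFR* 58 of them were tested and 1 was called, that is 1.72%, near the 1.24% of all features, and with Zfp423 0 were called. The called gene was Fyn, a Src family kinase recruited to activated PDGF receptors. It rose from 33.7 to 45.5 FPKM in AstroEGFR* to 115 to 171 FPKM in PT, a log2 difference of 1.86 with a standard error of 0.24 (limma, adjusted p = 0.0175). It belonged to the 22 receptor-proximal signalling genes, of which 7 had positive and 15 negative differences, with 0 called lower and a median of -0.11. In that list Pik3cb, a catalytic subunit of PI3 kinase, had the next greatest difference at -1.05 with a standard error of 0.27 (limma, adjusted p = 0.129).

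The proteases that process the ligands (6 of 7 tested) had 0 calls and a median of -0.39. Pcsk6 and Pcsk5, proprotein convertases, differed by -2.88 and -1.48 (limma, adjusted p = 0.182 and 0.693). Among the 8 co-receptors and extracellular binding partners, 0 were called and the median was -0.70. Pdgfrl, a receptor-like protein, and Itgb3, an integrin subunit, differed by -2.49 and -1.85 with standard errors of 0.57 and 0.39 (limma, adjusted p = 0.102 and 0.0802). Lrp1, an endocytic receptor that binds PDGF-B and was picked after its values were seen, went the other way, from 36.4 to 67.1 FPKM in AstroEGFR* against 118 to 168 in PT. Its log2 difference was 1.55 with a standard error of 0.29 (limma, adjusted p = 0.0553), and with Zfp423 0.84 (limma, unadjusted p = 0.0355, adjusted p = 0.628). The 10 attenuators had 0 calls and a median of -0.26, with Grb10, an adaptor that dampens receptor signalling, at -3.56 and Socs1, a cytokine signalling suppressor, at -1.28. Their standard errors were 0.91 and 0.32 (limma, adjusted p = 0.132 and 0.129). Of the growth-factor response genes 12 of 13 were tested and 0 called, with a median of 0.11. Ccl2, a chemokine, was at 2.87 to 3.06 FPKM in AstroEGFR* and 8.05 to 46.6 in PT (limma, adjusted p = 0.156). Ier3, an immediate early gene, differed by 1.47 with a standard error of 0.31 (limma, adjusted p = 0.0818). With Zfp423 the medians of the 5 lists ran from -0.31 for the proteases to 0.57 for the growth-factor response genes, beside 0.02 over all features.

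**Figure D5:**
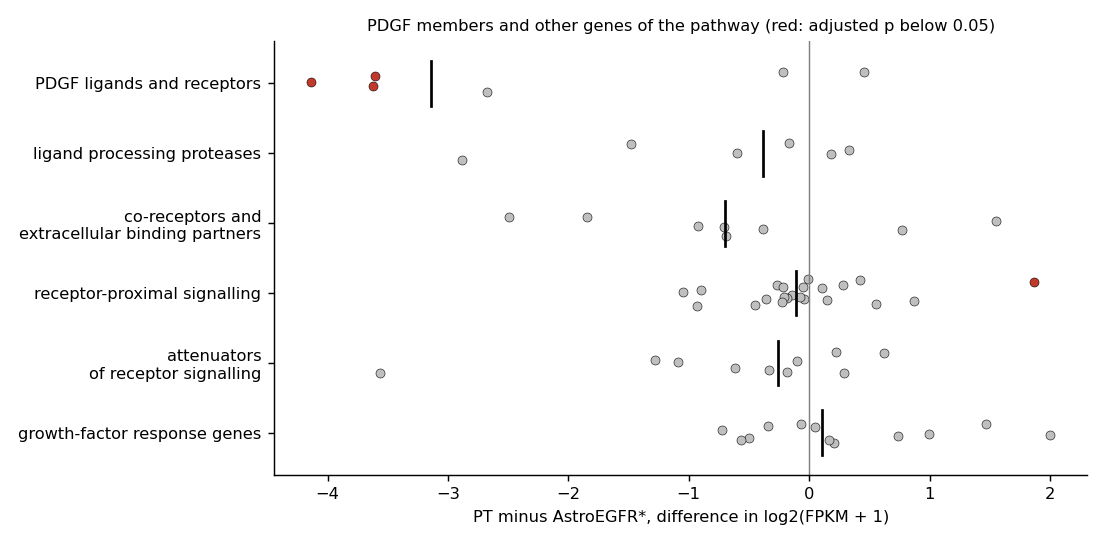
Differences between PT and AstroEGFR* in log2(FPKM + 1) for the 6 PDGF genes and the tested genes of 5 pathway lists; each point is 1 gene, red points have an adjusted p below 0.05 by limma, and black lines are medians. Outside the PDGF genes, Fyn at 1.86 is the single red point.

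Over the 10 libraries, likeness of pattern was measured by Pearson's r of log2(FPKM + 1) among 12476 features. The 10 points share 3 astrocyte batches and the group structure, so these values are descriptions. Within the system, r of Pdgfrb was 0.90 with Pdgfb, 0.89 with Pdgfc, 0.83 with Pdgfd and 0.11 with Pdgfra, and r of Pdgfa with Pdgfb was -0.76. By Spearman's rho Pdgfrb stood at 0.76, 0.84, 0.83 and 0.39 with the same 4 genes, so the low value for Pdgfra depends on the measure. The features most like Pdgfrb were Dock5, Ctgf, Fhl2, Ogn and Tpm1, at 0.977 to 0.984. Nearest to Pdgfb were Lmod1, Abhd14b, Fbln5, 2200002D01Rik and Atp2b4, at 0.961 to 0.987. Cyb5r3, Vamp5, D18Ertd653e, Pmepa1 and Slc44a2 were most like Pdgfc, at 0.957 to 0.978. For Pdgfd these were Klf5, Serpini1, Rdh10, Slit3 and Frmd3, at 0.949 to 0.955. Echs1, Dld, Nudt22, Adck1 and Mrps18a were closest to Pdgfa, at 0.917 to 0.932. Pdgfra had the weakest matches, Kcnmb4, Nacad, Sema3d, Lrrtm2 and Slc1a1, at 0.870 to 0.895. Ranking by Spearman's rho instead shared 2 of 5 features each for Pdgfb and Pdgfra, 1 of 5 for Pdgfrb and 0 of 5 for the other 3 genes, so the order of these names depends on the measure.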

How the data were processed

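RNAseq of 10 mouse libraries was used (AstroEGFR* n = 3, PT n = 4, AstroEGFR* Zfp423 n = 3). The authors deposited 1 matrix of FPKM values, and per the submitters' processing notes TopHat 1.3, Cuffnorm and the mm9 assembly were used; the annotation is not given in the sources used here. FPKM hold no counts, so depth is unknown and count models were not applied. The labels name a TruSeq RNA kit and a lentiviral Zfp423 vector, whereas the study's methods name ribosomal RNA removal with stranded kits and a retroviral vector. Groups came from the labels and batches from the study. Nothing states that cultures of 1 batch are independent animals, so p-values measure the spread between these cultures.

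Values were compared as log2(FPKM + 1), which understates the change of low genes, with limma 3.58.1 in R 4.3.3: features whose mean reached 1 FPKM, empirical Bayes with a trend, Benjamini-Hochberg adjustment and a threshold of 0.05. PT was compared without a block and Zfp423 with the astrocyte batch as a replicate block. The batches pair the samples by origin. Deviations of PT libraries correlated with those of their own batch at 0.347 to 0.500 and with those of other batches below 0. They were taken from group means, so a positive value with the own batch by itself pushes the others below 0. For Zfp423 the values with the own batch were 0.239, -0.110 and -0.261, and those with other batches ran from -0.230 to 0.305. Replicate libraries correlated at 0.740 to 0.956, and no pair held identical values. Permutation tests were exact and two-sided, free across batches for PT and within batches for Zfp423, in Python 3.11.15 with scipy 1.17.1.

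The 6 genes, the pathway and marker lists and the tests were chosen with earlier results of these data known. Of the lists were named the genes called in either comparison and the 2 with the greatest difference between PT and AstroEGFR*, of the markers the most abundant gene per list and genes at 0 throughout, and per PDGF gene the 5 features of highest correlation. Further genes named for context (Cspg4, Rgs5, Notch3, Anpep, Kcnj8, Abcc9, Higd1b, Vtn, Des, Lrp1, and those listed at 0 in 1 group) were picked after their values were seen. Alternatives were a pseudocount of 0.1, no filter, median-ratio scaling, rescaling without 812 small RNA and histone features, no trend, all libraries in 1 fit, other blocks, PT1 and PT4 averaged, and libraries or the third batch left out. ChIPseq and tumour data were not analysed here, and coordinates of the promoters are GRCm38.p6, not mm9.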

Additional observations from a re-analysis of the deposited data

Results flagged for a closer look

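Libraries went in opposite directions for several PDGF genes. With Zfp423, the log2 difference from the parent culture ranged from 1.22 in batch 2 to -3.56 in batch 3 for Pdgfc, from 2.16 in batch 1 to -1.94 in batch 3 for Pdgfra, and from 1.65 in batch 2 to -3.24 in batch 3 for Pdgfrb. In PT, Pdgfra ranged from 4.11 in PT4 to -2.45 in PT3, but PT1, of the same batch as PT4, was at -0.14, so the high value belonged to 1 library. Each batch held 1 AstroEGFR* library, so these differences were not tested.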

How the results depend on the processing

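Pdgfb, Pdgfc, Pdgfd and Pdgfrb were lower in PT under every alternative run. Calls were lost, by limma with Benjamini-Hochberg adjustment, for Pdgfb with all 10 libraries in 1 fit (-3.61, adjusted p = 0.0802), with a block by title number without PT4 (-3.60, 0.0588) and without the third batch (-3.80, 0.0816). For Pdgfd they were lost with no filter (-3.63, 0.0541), PT1 and PT4 averaged (-3.55, 0.0602) and without the third batch (-3.45, 0.0789). For Pdgfrb they were lost with all 10 libraries in 1 fit (-4.14, 0.0715), no filter (-4.14, 0.0505), PT1 and PT4 averaged (-4.11, 0.0550) and without the third batch (-4.25, 0.0797). The replicate block made Pdgfc pass (-2.80, 0.0353) and changed no other PDGF call in PT. Without each library in turn the ranges were -3.86 to -3.16 for Pdgfb (6 of 7 fits called), -3.97 to -3.14 for Pdgfd (2 of 7), -4.56 to -3.78 for Pdgfrb (4 of 7) and -1.41 to 0.30 for Pdgfra, which was 0.64 without the third batch. Of 6 PDGF genes, 3 were called in the reported fit, 1 with all 10 libraries, with no filter or with the average, 0 without the third batch, and 0 to 3 with libraries left out, 0 without AstroEGFR*1.

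All features called in PT numbered 152, against 475 with the replicate block, 82 with all 10 libraries, 61 with the average, 31 with the block by title number, 8 without the third batch and 7 to 123 with a library left out, 7 without AstroEGFR*1. With Zfp423, 0 features were called with the block, 2 without it, and 0 to 60 with a library left out, 47 without AstroEGFR*2 and 60 without AstroEGFR*2 Zfp423. Zfp423 differences turned without the third batch for Pdgfa (-0.00404), Pdgfc (0.31), Pdgfra (0.82) and Pdgfrb (1.22), none of them called. Left-out libraries gave -0.00404 to 0.49 for Pdgfa, -2.08 to 0.31 for Pdgfc, -1.23 to 0.82 for Pdgfra and -1.23 to 1.22 for Pdgfrb. The causes of these changes were not tested; leaving out libraries also leaves fewer samples. Depth is unknown and limits the low values most.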
